A study of Mus musculus with 8 samples.

Results

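Accessible chromatin at the promoters of long intergenic noncoding RNAs (lincRNAs) was examined in mouse squamous cell carcinoma (SCC) cells. Peaks of 8 ATAC-seq libraries on chromosomes 1 to 19, X and Y were merged where they shared at least 1 bp, which gave 69399 regions. A region was kept as a lincRNA promoter when it overlapped the 500 bp on either side of the transcription start site (TSS) of a transcript annotated as lincRNA, and when no protein-coding TSS lay within 2 kb of it. This left 725 lincRNA promoter regions at 722 of the 6058 annotated lincRNA genes. The rule itself uses no measured value other than the position of the peaks, although it was set with earlier results of these data known.

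ATAC-seq marks open DNA by inserting sequencing adapters into it with a transposase. The SCC cells carry a Ha-Ras driver and came from skin tumours that DMBA and TPA had induced in FVB mice of the genotype K14CreER FAKflox/flox, and *Ptk2*, the gene of focal adhesion kinase (FAK), was deleted in culture with 4-hydroxytamoxifen. The 4 lines were FAK-/- cells, labelled as the control, and cells made from a single FAK-/- clone by retroviral transduction with either wild-type FAK (FAK-WT), FAK with a mutated nuclear localization sequence (FAK-nls) or kinase-deficient FAK (FAK-kd). Each line had 2 libraries, described as biological replicates, so any p-value measures only the spread between libraries of these lines, with 1 clone behind the re-expressing ones. The lines were compared to ask how accessible chromatin depends on FAK, on its entry into the nucleus and on its kinase function.

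On the kept chromosomes, replicates 1 and 2 held 53703 and 39036 peaks for FAK-WT, 43136 and 35236 for FAK-/-, 24383 and 24959 for FAK-nls and 32938 and 45937 for FAK-kd. Reads per library were not used here. The label of squamous carcinoma was checked against promoters of cell type markers. Of 7 squamous epithelial markers, the promoter of *Itga6* was called in all 8 libraries, that of *Lamb3* in 2 and that of *Krt14* in 1, and those of *Krt5*, *Trp63*, *Cdh1* and *Itgb4* in none. Of 3 fibroblast markers *Pdgfra* and *Col1a1* were called in all 8 libraries and *Col1a2* in none. The calls thus did not bear out the label at most of the squamous markers, with 1 of 7 called in every library, against 2 of 3 of the fibroblast markers, and the label is kept here as the submitters gave it. Of 2 endothelial markers *Cdh5* was called in 2 libraries and *Pecam1* in none, and the 4 leukocyte and 2 melanocyte promoters were not called. The promoter of *Ptk2* was called in all 8 libraries, and since re-expressed FAK comes from a retrovirus this does not check the line labels.

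Most lincRNAs are spliced and polyadenylated like messenger RNAs. They encode no known protein and are transcribed from their own promoters between protein-coding genes. Many are made in few cell types, and their promoters tend to hold fewer CpG dinucleotides than protein-coding promoters. Those with a known role include scaffolds of nuclear bodies such as *Neat1*, RNAs of X inactivation such as *Xist*, hosts of microRNAs and small nucleolar RNAs, and RNAs next to p53 targets and to *Myc*. Most of the others carry provisional symbols: 672 of the 725 regions (92.7%) lay at genes named only by a Gm, Rik, BC or clone-type symbol.

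The sequences of 3 promoters and 4 region centres show the range of the class. The promoters are 250 bases before to 50 bases after the TSS, on the strand of the gene, from GRCm38, the assembly behind mm10. They belong to *Trp53cor1* (chr17:29079130-29079429, minus strand), *Dancr* (chr5:74092827-74093126, plus strand) and *Lncpint* (chr6:31088422-31088721, minus strand), chosen because their regions were called in all 8 libraries and their RNAs are well known. Capitals mark a CCAAT box, a GC box, a TATA box or an AP-1 motif on either strand. The GC box was searched as GGGCGG. The TATA box was searched as TATAAA, and AP-1 as TGACTCA, whose reverse complement differs from it only at the centre.
Trp53cor1: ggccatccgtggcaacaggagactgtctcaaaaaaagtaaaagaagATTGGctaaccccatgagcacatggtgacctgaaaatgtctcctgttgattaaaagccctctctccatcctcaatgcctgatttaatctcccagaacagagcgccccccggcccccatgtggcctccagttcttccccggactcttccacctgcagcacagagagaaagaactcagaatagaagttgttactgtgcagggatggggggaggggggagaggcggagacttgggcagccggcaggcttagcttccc
Dancr: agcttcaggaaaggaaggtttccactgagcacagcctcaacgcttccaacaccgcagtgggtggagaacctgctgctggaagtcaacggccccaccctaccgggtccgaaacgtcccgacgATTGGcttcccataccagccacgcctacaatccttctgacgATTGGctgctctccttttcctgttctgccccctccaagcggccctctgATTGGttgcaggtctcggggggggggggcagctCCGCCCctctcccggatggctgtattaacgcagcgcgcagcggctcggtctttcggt
Lncpint: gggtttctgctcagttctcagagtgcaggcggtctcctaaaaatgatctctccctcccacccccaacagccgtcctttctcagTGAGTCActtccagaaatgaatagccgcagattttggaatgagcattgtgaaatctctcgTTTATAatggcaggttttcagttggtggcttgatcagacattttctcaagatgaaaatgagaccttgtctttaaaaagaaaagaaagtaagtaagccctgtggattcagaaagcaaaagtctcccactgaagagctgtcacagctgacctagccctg
Counted from the TSS, *Trp53cor1* had a CCAAT match at -204. *Dancr* had CCAAT matches at -129, -88 and -40 with a GC box at -7, and *Lncpint* an AP-1 match at -167 and a TATA match at -107. The printed *Lncpint* window (45% GC) is 1 of 3 at this gene and lies downstream of the others. Those at chr6:31216464-31217004 and chr6:31220182-31220908 had 76.3% and 62.7% GC and no AP-1 or TATA match. The former held a GC box and the latter none of the motifs searched.

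The region centres are the middle 300 bp of regions whose calls differed between lines, on the plus strand. *Gm41277* (chr15:18064153-18064452) was called in the FAK-WT and FAK-kd libraries only, and *Gm35940* (chr9:41815931-41816230) in all libraries except FAK-nls. *Gm29157* (chr1:43742490-43742789) and *4933436E23Rik* (chr1:139379388-139379687) were called in the FAK-/- and FAK-kd libraries only. The region of *Gm29157* overlapped an exon of a protein-coding gene. Capitals mark AP-1, ETS (CGGAAGT or AGGAAGT) and CCAAT matches on either strand.
Gm41277: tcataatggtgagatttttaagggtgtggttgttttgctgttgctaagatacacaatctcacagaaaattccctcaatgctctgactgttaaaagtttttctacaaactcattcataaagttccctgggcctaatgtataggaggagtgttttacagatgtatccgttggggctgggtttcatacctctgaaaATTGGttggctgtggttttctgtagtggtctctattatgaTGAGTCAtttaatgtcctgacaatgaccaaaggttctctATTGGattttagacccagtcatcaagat
Gm35940: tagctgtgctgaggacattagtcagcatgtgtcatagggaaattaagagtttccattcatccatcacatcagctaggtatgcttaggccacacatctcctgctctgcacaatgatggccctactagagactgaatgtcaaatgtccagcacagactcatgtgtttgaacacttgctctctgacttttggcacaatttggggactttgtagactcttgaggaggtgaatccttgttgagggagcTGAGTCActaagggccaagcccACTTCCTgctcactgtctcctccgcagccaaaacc
Gm29157: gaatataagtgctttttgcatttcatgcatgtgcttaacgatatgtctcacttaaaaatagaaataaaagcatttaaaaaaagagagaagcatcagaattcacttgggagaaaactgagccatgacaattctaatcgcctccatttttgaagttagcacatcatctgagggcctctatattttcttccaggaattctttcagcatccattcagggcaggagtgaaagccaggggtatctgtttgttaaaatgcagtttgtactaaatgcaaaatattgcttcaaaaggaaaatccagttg
4933436E23Rik: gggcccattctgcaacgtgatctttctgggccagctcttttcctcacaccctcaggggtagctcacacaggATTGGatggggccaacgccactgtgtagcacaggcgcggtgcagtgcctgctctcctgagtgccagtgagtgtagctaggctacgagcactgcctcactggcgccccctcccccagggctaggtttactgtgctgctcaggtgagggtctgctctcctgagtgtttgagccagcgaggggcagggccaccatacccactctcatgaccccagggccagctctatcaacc
AP-1 matches lay at base 234 of the *Gm41277* window and at base 244 of the *Gm35940* window, with an ETS match at base 266 of the latter. None of the motifs searched was found in the *Gm29157* window, and *4933436E23Rik* had a CCAAT match at base 72. The windows of 250 bases before to 50 after the TSS of the same genes gave other matches. That of *4933436E23Rik* held AP-1 and CCAAT matches, that of *Gm41277* only a CCAAT match, and that of *Gm35940* ETS and CCAAT matches.

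Over all 725 regions, 686 (94.6%) lay outside protein-coding genes, 33 in an intron and 6 over an exon of a protein-coding gene, and 566 overlapped an exon of a lincRNA. The median distance from the lincRNA TSS to the nearest protein-coding TSS was 42613 bp, with quartiles of 18153 and 102485 bp. Only 9 regions lay on the X chromosome and none on Y. Of the genes, 23 had 2 or more regions, so these regions are not independent of each other, and 26 regions served 2 or more lincRNA genes. The 304 further regions that met a lincRNA TSS but lay within 2 kb of a protein-coding TSS were not kept. With 1000 bp on either side of the TSS, the number kept would be 906.

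LincRNA promoters lay between protein-coding promoters and distal regions in how many libraries they were called. Of the 725, 241 were called in all 8 libraries (33.2%, 95% Wilson interval 29.9 to 36.8), against 25.8% of all regions, 67.8% of the 11801 protein-coding promoter regions and 16.8% of the 49096 distal regions, which lie over 2 kb from any TSS. At the other end, 120 lincRNA promoters (16.6%, 14.0 to 19.4) were called in a single library, against 28.6% of all regions, 7.88% of protein-coding promoters and 33.2% of distal regions. The numbers in 2, 3, 4, 5, 6 and 7 libraries were 69, 50, 48, 60, 56 and 81 (9.52%, 6.90%, 6.62%, 8.28%, 7.72% and 11.2%, against 11.4%, 7.71%, 6.48%, 6.01%, 6.93% and 7.13% of all regions). The intervals cover the counting of regions only. The numbers called in every library moved with the settings: with −log10 q of at least 3 they were 120 of 541 (22.2%, against 20% of all regions), and with at least 50% of a region covered 98 of 725 (13.5%, against 10.5%). Regions were not replicates, and these shares were compared as a description, with no test.

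**Figure D1:**
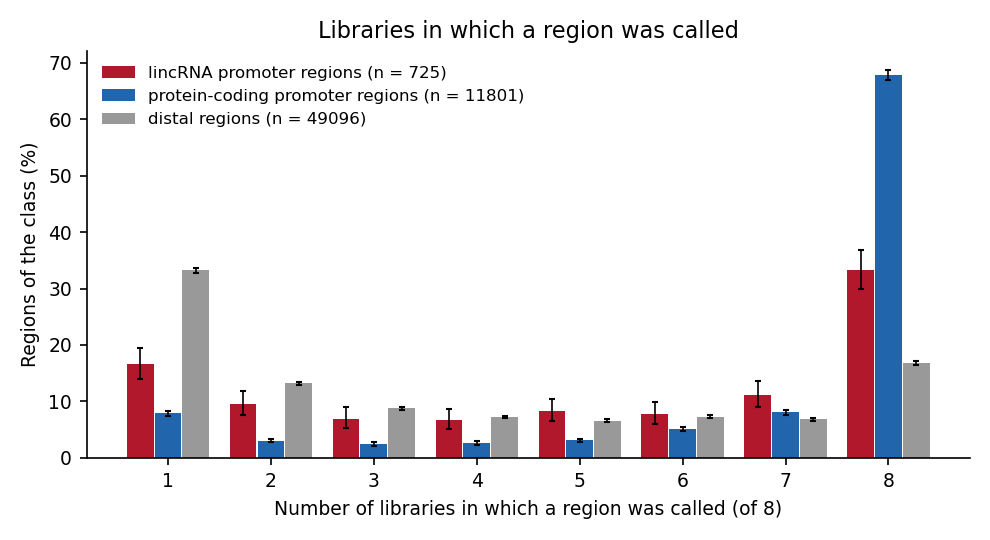
Share of regions (vertical axis, %) called in 1 to 8 libraries (horizontal axis) for lincRNA promoter, protein-coding promoter and distal regions, with 95% Wilson intervals as error bars. The lincRNA promoters have a peak at 8 libraries (33.2%) and a smaller one at 1 library (16.6%), between the other classes at both ends.

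Recurrence moved with the kind of region. Of the 304 regions left out for a nearby protein-coding TSS, 78.6% were called in all 8 libraries. Among the lincRNA promoters, 24 of the 53 with an established name were called in all 8 (45.3%), against 217 of the 672 with a provisional one (32.3%). The share was 37.3% for regions that overlapped a lincRNA exon and 18.9% for those that met only the window around the TSS. It hardly followed the distance to protein-coding genes: 34.5% up to 5 kb, 29.6% from 5 to 20 kb, 33.0% from 20 to 100 kb and 36.7% beyond 100 kb. The lincRNA promoter regions had a median width of 788 bp (quartiles 487 and 1171), against 1064 bp for protein-coding promoters and 524 bp for distal regions. Within the class the median width was 867.5 bp with overlap of a lincRNA exon and 527 bp without. It was 984 bp for established and 770 bp for provisional names. The part of width in these shares was not tested.

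In sequence, the lincRNA promoters were poorer in GC and CpG than the protein-coding promoters that were called. The median GC content of the 300 bases around the TSS was 50.3% against 62.0%, and the ratio of observed to expected CpG reached 0.6 in 18.9% against 72.2%. In 4846 lincRNA genes with no called region and no protein-coding TSS within 2 kb, the median GC content was 46.3% and 4.27% reached that CpG ratio. For these genes the TSS was that of the first transcript by identifier, and for called promoters the TSS nearest the region centre. Within the called lincRNA promoters, the share with a CpG ratio of at least 0.6 was 33.2% for regions in all 8 libraries, 18.8% in 5 to 7, 8.38% in 2 to 4 and 5.00% in 1 library. The share of promoters with at least 50% of soft-masked repeat sequence was 6.62% for called and 26.7% for uncalled lincRNA promoters.

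AP-1 matches were more frequent in called lincRNA promoters than in any of the promoter groups they were set beside. They were found in 107 of 725 (14.8%), in 4.72% of called protein-coding promoters, in 5.28% of uncalled lincRNA promoters and in 4.80% of all 27941 lincRNA and protein-coding genes, at windows of the same length. The choice of TSS differed: nearest the region centre for called promoters, and the first transcript by identifier for uncalled promoters and all genes. The part of this choice was not tested. GC boxes showed the reverse relation to protein-coding promoters, with 21.5% of called lincRNA promoters against 65.6%, and 6.03% of uncalled lincRNA promoters. TATA matches were found in 14.2%, 6.21% and 16.1% of these groups, CCAAT matches in 37.9%, 36.8% and 43.0%, ETS matches in 13.4%, 19.2% and 10.2%, and the CRE motif TGACGTCA in 1.52%, 3.33% and 0.495%. In the central 300 bp of the regions, AP-1 matches were found in 24.4% of lincRNA promoters, 5.22% of protein-coding promoters, 34.4% of distal regions and 28.7% of all regions. CTCF matches were found there in 4.28%, 0.924%, 4.63% and 4.09%. A match is a run of letters, not a site shown to be bound.

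The strength of a region in a library was given as the percentile of its strongest peak by −log10 p among all peaks of that library, since peak values are not comparable between lists. A percentile depends on the length of its list as well as on the region, and the FAK-nls lists were the shortest, so percentiles of a single region in different libraries are given as ranks within each list and not as differences between lines. LincRNA promoters were weaker than protein-coding promoters in 8 of 8 libraries. Their median percentile was 54.2 and 50.2 in FAK-WT, 49.7 and 46.7 in FAK-/-, 48.1 and 45.2 in FAK-nls, and 49.8 and 57.3 in FAK-kd. The protein-coding medians ran from 60.9 to 71.9, with no overlap with the lincRNA values. The difference was −16.2 ± 1.84 percentile points (SD, n = 8; exact two-sided sign-flip permutation test over libraries, p = 0.00781, the smallest it can give, Benjamini-Hochberg adjusted p = 0.0312 over 8 tests). It was smaller, at −9.31 points with −log10 q of at least 3 and −9.32 with equal peak numbers.

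Against distal regions, whose medians ran from 42.7 to 44.7, lincRNA promoters were higher in 8 of 8 libraries, by 6.54 ± 4.44 points (SD, n = 8; same exact test, p = 0.00781, adjusted p = 0.0312). This difference was between 0.988 points in FAK-nls replicate 2 and 14.5 points in FAK-kd replicate 2. It rested on the measure: with the percentile of fold enrichment in place of −log10 p it was 0.741 points (exact p = 0.711), while the difference from protein-coding promoters remained at −11.4 points (exact p = 0.00781). The median fold enrichment of lincRNA promoters was 3.99 to 4.64 over the libraries, and that of distal regions 4.07 to 4.37. Region width differed between the classes as given above, and its part in these differences was not tested.

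**Figure D2:**
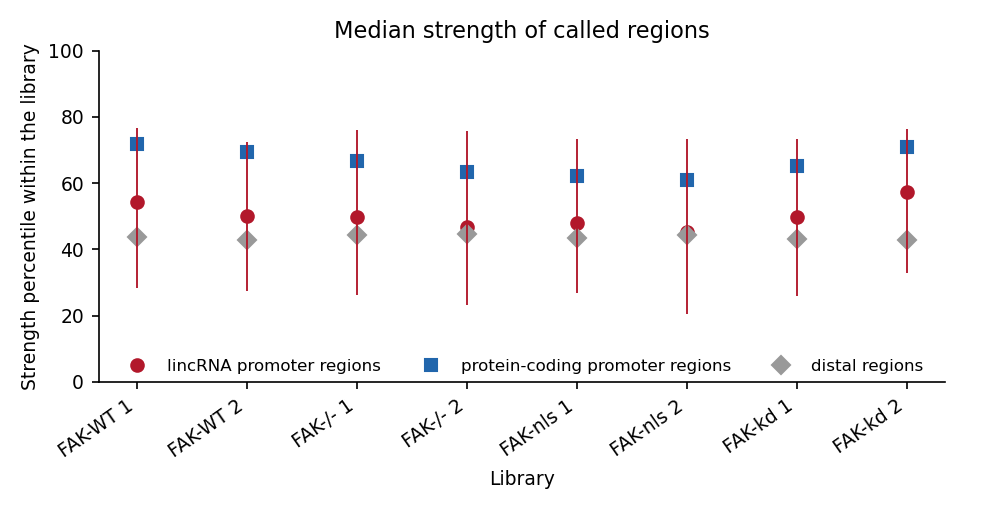
Median strength percentile (vertical axis, percentile of −log10 p among all peaks of the library) of lincRNA promoter, protein-coding promoter and distal regions in each of the 8 libraries (horizontal axis), with vertical lines for the interquartile range of the lincRNA promoters. The lincRNA medians lie between 45.2 and 57.3, below the protein-coding median and above the distal median of every library.

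With all peaks the gap to protein-coding promoters was −18.4 ± 1.05 points in the FAK-WT libraries and −16.9 ± 0.170 in those of FAK-/- (mean ± SD, n = 2 each). For FAK-nls it was −14.9 ± 1.04 and for FAK-kd −14.5 ± 1.2. Lines accounted for 84.5% of its variance, which did not pass the test (exact permutation test over the 105 ways of pairing the libraries, p = 0.0571, adjusted p = 0.152). The order of the lines did not hold with equal peak numbers, an alternative added after seeing the data. FAK-nls then had the widest gap, at −12.8 ± 0.555, then FAK-WT with −11.1 ± 3.84 and FAK-kd with −8.53 ± 1.56, and FAK-/- the narrowest, at −4.82 ± 0.109 (80.6% of the variance, same exact permutation test, p = 0.105).

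Of the 241 lincRNA promoters called in all 8 libraries, 97 were at or above the 50th percentile in every library (40.2%, against 41.4% of all regions called in all 8) and 17 at or above the 90th (7.05%, against 5.22%). The 8 chosen for the highest lowest percentile over the libraries were *4930579D09Rik* (chr6:143534963-143536056), with percentiles of 99.4 to 99.9, *1700028E10Rik*/*D730045B01Rik* (chr5:151368276-151369201), with 98.8 to 99.9, *Gm37494* (chr7:39552056-39553011), with 97.0 to 99.9, *Gm26901* (chr1:7397583-7398518), with 97.0 to 99.4, *1810026B05Rik* (chr7:73558187-73559118), with 96.4 to 99.6, *1700030E10Rik* (chr10:67717360-67718023), with 96.2 to 99.6, *Gm26917*/*Gm42418* (chr17:39843268-39846688), at or above 98.7, and *AY036118* (chr17:39848121-39848804), at or above 97.8. Their fold enrichment separated the last pair from the others. It was 2.37 to 2.42 at *Gm26917*/*Gm42418* and 2.30 to 2.44 at *AY036118*, below the lincRNA median of every library, and 6.22 to 9.01 at the other 6. These chromosome 17 loci are known to resemble ribosomal RNA repeats, so reads from other copies may be placed there, and their accessibility is uncertain.

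Known lincRNAs were looked up from a list of 52 genes. Of these, 39 had a transcript annotated as lincRNA, 21 had a lincRNA promoter region, and 13 of the 21 had a region called in all 8 libraries. A further 12 had a region at a TSS that did not meet the rule, 16 had no called region at any TSS and 3 (*Norad*, *Morrbid* and *Oip5os1*) were not annotated under these symbols. Each gene was counted by its region with the most libraries, and some genes had several regions. The shares called in all 8 libraries, 33.2% of lincRNA promoters and 25.8% of all regions, are per region and not like for like. Among the hosts of small nucleolar RNAs, which guide the modification of ribosomal RNA, *Snhg5*, *Snhg6*, *Snhg8*, *Snhg12* and *Snhg17* were called in all 8 libraries and *Snhg20* in 5. With −log10 q of at least 3 and with equal peak numbers, *Snhg12* was called in 4 and 6 libraries, *Snhg17* in 6 and 5, and *Snhg20* in 2 and 1, while *Snhg5*, *Snhg6* and *Snhg8* were called in 8. *Snhg6* was called in 6 when 50% of its region had to be covered. *Snhg8* had the highest lowest percentile of them, with percentiles of 97.6 and 97.0 in FAK-WT, 80.2 and 84.3 in FAK-/-, 95.3 and 85.2 in FAK-nls, and 77.8 and 87.5 in FAK-kd. *Snhg20* had 34.0 and 10.9 in FAK-WT, 12.6 and 0.6 in FAK-/-, 55.3 in FAK-kd replicate 2 and no call in the other 3.

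The p53- and *Myc*-linked genes on the list that had a lincRNA transcript were all called in 8 libraries as deposited. With at least 50% of a region covered, *Trp53cor1* was called in 2 and *Pvt1* in 3, and with −log10 q of at least 3 *Pvt1* was called in 5 and *Lncpint* in 6. *Trp53cor1* (chr17:29078235-29079430), also known as lincRNA-p21, starts 11800 bp from the TSS of *Cdkn1a*, on the opposite strand. Its percentile was 70.4 and 84.5 in FAK-WT, 78.6 and 93.6 in FAK-/-, 56.4 and 49.9 in FAK-nls, and 82.3 and 83.2 in FAK-kd. These ranks were lowest in the FAK-nls lists, which hold 24383 and 24959 peaks against 32938 to 53703 elsewhere. In fold enrichment the FAK-nls libraries were 4.69 and 4.50, against 5.53 to 6.65 elsewhere, but after quantile normalisation FAK-WT and FAK-nls differed by only 0.14 on the log2 scale (SE 0.152, limma adjusted p = 0.71). *Lncpint*, a long RNA induced by p53, had 3 regions, 2 of them with a call in every library. The fold enrichment of the FAK-nls libraries overlapped with the others at its region on chr6:31087663-31089485, with 3.80 and 4.22 against 4.01 to 5.02. At this region the percentiles were 66.9 and 72.4 in FAK-WT, 82.3 and 67.4 in FAK-/-, 27.8 and 39.1 in FAK-nls, and 61.0 and 72.6 in FAK-kd, while the normalised fold enrichment of FAK-WT and FAK-nls differed by −0.004 (log2, SE 0.140, limma adjusted p = 0.993). *Pvt1*, which lies beside *Myc*, had regions in all 8 libraries at chr15:62037626-62038765, with percentiles of 6.3 to 38.9, and at chr15:62222551-62223804, with 20 to 69.0. At the first the percentiles were 27.4 and 37.1 in FAK-WT and 13.6 and 6.3 in FAK-/-. The normalised fold enrichment of these lines differed there by 0.146 (log2, SE 0.134, limma adjusted p = 0.963). At the second region the percentiles were 69.0 and 60.5 in FAK-/- and 29.5 and 38.2 in FAK-kd. These are ranks in lists of different length. Neither region passed limma between FAK-WT and another line, and FAK-/- was not tested against FAK-kd.

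*Malat1* (chr19:5802462-5804767), a nuclear speckle RNA, and *Neat1* (chr19:5845016-5846956), the scaffold of paraspeckles, were called in every library but FAK-nls replicate 1. The calls depended on the settings: with −log10 q of at least 3 *Malat1* was called in 0 libraries and *Neat1* in 4, and with equal peak numbers in 1 and 5. *Malat1* had percentiles of 2.2 to 28.4 and *Neat1* of 6.3 to 66.7 where called. *Neat1* read 33.3 and 24.5 in FAK-WT, 66.7 and 44.1 in FAK-/-, 6.3 in FAK-nls replicate 2, and 29.3 and 56.7 in FAK-kd. Of the genes of X inactivation, *Ftx* (chrX:103615532-103617475) was called in all 8 libraries with percentiles of 43.1 to 67.1 and *Jpx* (chrX:103492777-103494032) in 7, again without FAK-nls replicate 1, while *Xist* was not called. With at least 50% of a region covered, *Ftx* was called in 6 libraries and *Jpx* in 3, and *Jpx* in 5 with equal peak numbers. Of the imprinted genes, *H19*, *Meg3* and *Mirg* were not called, and *Rian* had 2 regions, each called in FAK-WT replicate 1 alone.

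*Dancr* (chr5:74092545-74093566), named for an RNA that holds back differentiation of progenitor cells, had the highest lowest percentile of the known lincRNA promoters, although *Snhg8* was above it in both FAK-WT libraries. Its percentile was 95.9 and 96.5 in FAK-WT, 97.3 and 90.6 in FAK-/-, 98.0 and 93.0 in FAK-nls, and 96.5 and 98.3 in FAK-kd, so the lines overlapped. Among the hosts of microRNAs, *Mir17hg* was called in all 8 libraries with percentiles of 39.3 to 76.1, as was a region of *Dleu2* with 44.5 to 85.6. With peaks of 500 bp *Mir17hg* had no region that met the rule, and *Dleu2* was called in 7 libraries. *Mir155hg*, *Mir99ahg* and *Mir670hg* had regions in up to 7 libraries. These fell to 2, 5 and 3 with −log10 q of at least 3, and to 1, 5 and 3 with equal peak numbers. *Carmn*, a noncoding RNA best known from smooth muscle, was called in all 8 with percentiles of 59.8 to 83.1, while *Miat*, *Hotair*, *Hottip*, *Rmst* and the hosts of neural microRNAs on the list were not called in any library. A missing call means no peak at the authors' threshold, not closed chromatin.

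**Figure D3:**
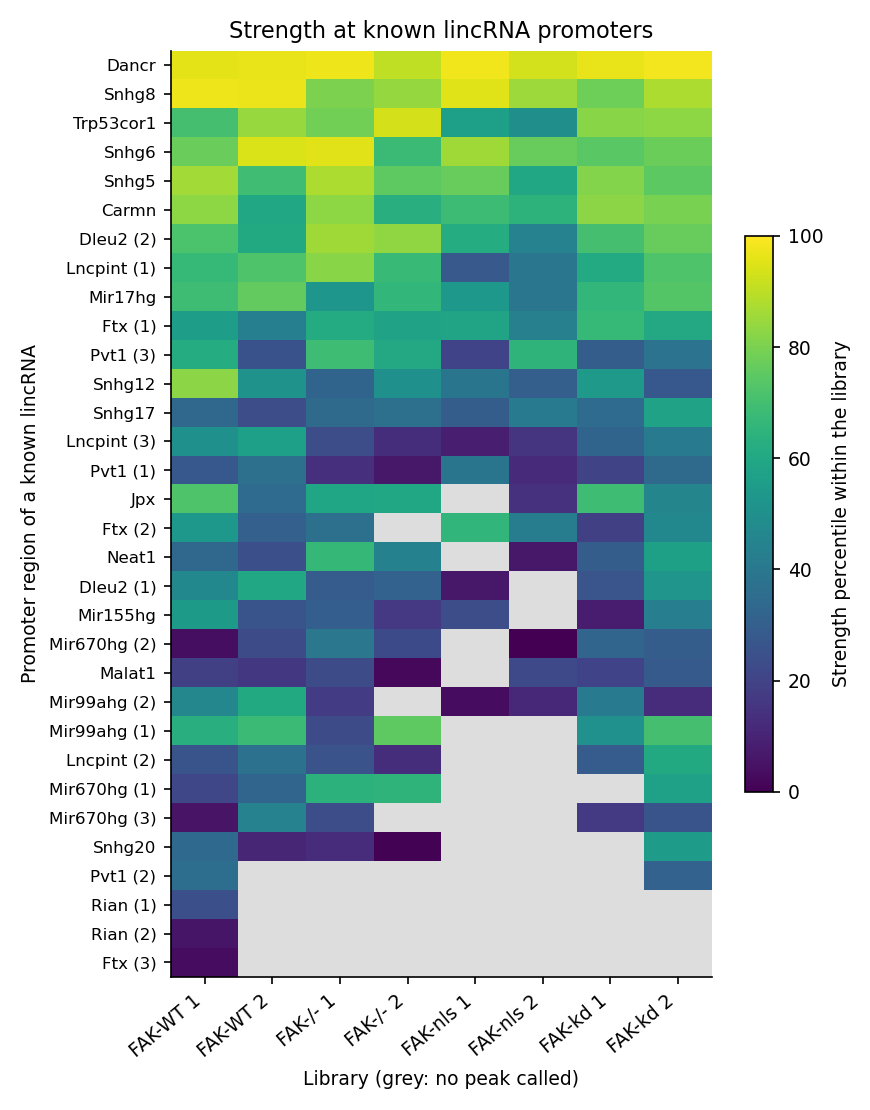
Strength percentile within the library (colour, 0 to 100) of the promoter regions of known lincRNAs (rows, with the regions of a gene numbered by position) in the 8 libraries (columns), grey where no peak was called. *Dancr* is near the top of the scale in every library (90.6 to 98.3), and the grey cells are most frequent in the FAK-nls columns.

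The number of lincRNA promoters called followed the number of peaks in a library. It was 626 and 503 in FAK-WT, 525 and 453 in FAK-/-, 313 and 331 in FAK-nls, and 435 and 545 in FAK-kd. The FAK-nls libraries, with the fewest peaks, were the lowest and did not overlap with the others. The share of all annotated lincRNA genes with a called region at a TSS was 12.2% ± 1.92 (SD, n = 8), from 9.43% in FAK-nls replicate 1 to 15% in FAK-WT replicate 1, against 48.3% ± 2.99 for protein-coding genes. This share also counts the regions that were not kept because a protein-coding TSS lay within 2 kb.

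As a share of the called regions of a library, lincRNA promoters made up 1.17% and 1.30% in FAK-WT, 1.23% and 1.30% in FAK-/-, 1.29% and 1.34% in FAK-nls, and 1.33% and 1.19% in FAK-kd. The lines overlapped. The share was lowest in the libraries with the most peaks, at 1.17% for 53703 peaks, 1.19% for 45937 and 1.23% for 43136, so it too moved with peak number. They accounted for 24.6% of the variance (exact permutation over 105 divisions, p = 0.686, adjusted p = 0.784), and FAK-WT differed from the other lines by −0.0453 percentage points (exact two-sided permutation over 28 choices, p = 0.464, adjusted p = 0.784). The differences of FAK-WT from FAK-/-, FAK-nls and FAK-kd were −0.0269, −0.0804 and −0.0286 points, and 2 libraries against 2 cannot give a p below 0.333.

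When each list was reduced to its 24383 strongest peaks, the number in the smallest list, 482 lincRNA promoters remained and the shares fell into order. They were 1.25% and 1.26% in FAK-WT, 1.19% and 1.21% in FAK-/-, 1.26% and 1.28% in FAK-nls, and 1.32% and 1.35% in FAK-kd, from 290 and 294 regions in FAK-/- to 320 and 328 in FAK-kd. FAK-kd lay above and FAK-/- below all other libraries, while the FAK-WT and FAK-nls values met. Lines accounted for 95.3% of the variance (exact permutation over 105 divisions, p = 0.0190, not adjusted). Under the other settings tried, those that leave out a library included, this p was between 0.371 and 0.952, and the FAK-WT difference was not past 0.05 in any of them, equal peak numbers included (−0.0119 points, exact p = 0.750).

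**Figure D4:**
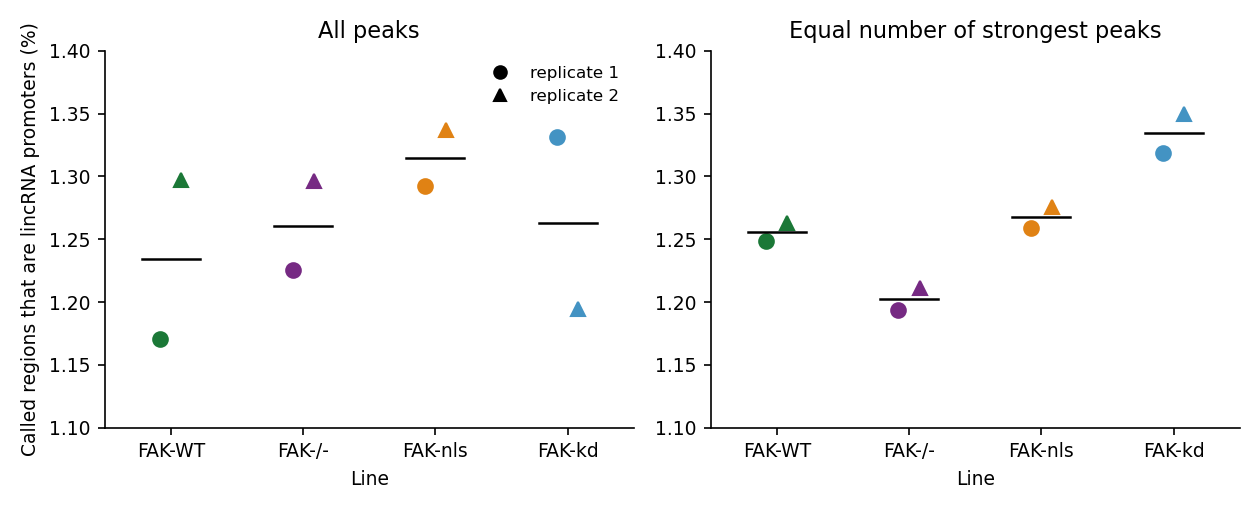
Share of the called regions that are lincRNA promoters (vertical axis, %, cut to the range from 1.1 to 1.4) in each library by line, with all peaks on the left and equal numbers of strongest peaks on the right, circles for replicate 1, triangles for replicate 2 and bars for the mean. With all peaks the lines overlap, and with equal numbers FAK-kd (1.32% and 1.35%) is above and FAK-/- (1.19% and 1.21%) below the rest.

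Line differences at single promoters were first read as calls in both libraries of a line and neither of the other. Between FAK-WT and FAK-/-, 34 lincRNA promoters (4.69%) were called in FAK-WT only, against 4.89% of all regions, and 12 (1.66%) in FAK-/- only, against 1.18%. Between FAK-WT and FAK-nls the numbers were 133 (18.3%, against 15.3%) and 3 (0.414%, against 0.248%). Between FAK-WT and FAK-kd they were 28 (3.86%, against 4.33%) and 12 (1.66%, against 0.83%). The shares of lincRNA promoters were near those of all regions in the FAK-WT-only direction. The comparisons share the FAK-WT libraries. The excess over the reverse direction moved with peak number, which was lowest in FAK-nls.

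With equal peak numbers the excess over FAK-nls was gone: 24 lincRNA promoters (4.98%, against 4.91% of all regions) were called in FAK-WT only and 26 (5.39%, against 4.23%) in FAK-nls only. Against FAK-/- the numbers were 18 (3.73%, against 3.44%) and 13 (2.70%, against 3.31%), and against FAK-kd 8 (1.66%, against 3.1%) and 16 (3.32%, against 2.64%). Of the 482, 169 (35.1%) were called in all 8 libraries, against 32.7% of all regions.

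**Figure D5:**
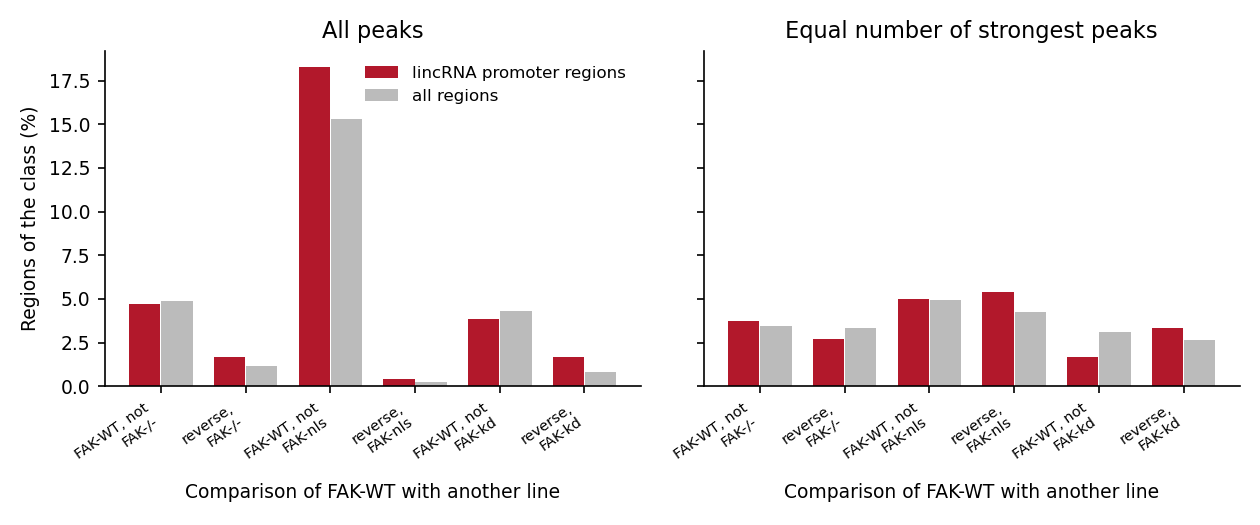
Share of regions (vertical axis, %) called in both FAK-WT libraries and neither library of another line, or the reverse (horizontal axis), for lincRNA promoter regions and all regions, with all peaks on the left and equal peak numbers on the right. The tall bars for FAK-WT against FAK-nls with all peaks (18.3% and 15.3%) come down to 4.98% and 4.91% with equal numbers.

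Most lincRNA promoters did not split cleanly by line. In 414 (57.1%, against 65.7% of all regions) at least 1 line had a call in only 1 of its libraries. Of the remaining 311, 241 were called in every library and 34 in all lines but FAK-nls (4.69%, against 4.12% of all regions). FAK-WT alone had 14 (1.93%, against 1.99%), FAK-WT with FAK-kd 6 (0.828%, against 0.471%) and FAK-WT with FAK-/- 4 (0.552%, against 0.62%). FAK-/- with FAK-kd had 4 (0.552%, against 0.15%), FAK-/- alone 3 (0.414%, against 0.473%) and FAK-kd alone 3 (0.414%, against 0.317%). A single region was called in FAK-nls with FAK-kd, at *Gm12111* (0.138%, against 0.0159%), and a single one in all lines but FAK-/-, at *Gm37073* (0.138%, against 0.104%). None was called in FAK-nls alone (0%, against 0.0562%). With −log10 q of at least 3 *Gm12111* was called in 1 library and *Gm37073* in 2. Of the 81 regions called in 7 libraries, 69 (85.2%) were missing from a FAK-nls library, against 80.7% of all regions called in 7.

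The regions called in FAK-WT and missing elsewhere were led by uncharacterised genes. *Gm41277* (chr15:18063942-18064665), whose centre is printed above with its AP-1 match, had percentiles of 79.4 and 89.8 in FAK-WT and 55.3 and 48.4 in FAK-kd, and no call in FAK-/- or FAK-nls. Its fold enrichment was 6.25 and 7.06 in FAK-WT and 4.74 and 4.73 in FAK-kd. *BC028471* (chr5:149375882-149376207) had the same pattern, with percentiles of 75 and 75.7 in FAK-WT and 26.8 and 46.7 in FAK-kd. *Gm35326* (chr12:97872466-97872750) was called in FAK-WT alone, with 56.5 and 43.1. *Gm41277*, *Gm35326* and *Gm35940* were called in the same number of libraries (4, 2 and 6) under each of the 7 other ways of calling regions that were tried, and *BC028471* in 3 under a stricter q-value or equal peak numbers.

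Missing from FAK-nls but called in the other 6 libraries were *Gm35940* (chr9:41815758-41816404), with percentiles of 90.9 and 82.7 in FAK-WT, 88.4 and 84.9 in FAK-/-, and 69.2 and 68.6 in FAK-kd, and *Gm44812* (chr7:70574140-70575155), with 72.5 and 67.3, 84.5 and 81.3, and 31.7 and 51.0. Missing from FAK-kd were *Gm39043* (chr7:83813964-83814811), called in FAK-WT (44.2 and 50.2) and FAK-/- (51.1 and 38.9), *Gm26579* (chr10:116674390-116675139), with 69.6 and 44.5 in FAK-WT and 13.8 in FAK-/- replicate 1, and *Gm45502* (chr7:132910843-132911502), with 54.6 and 44.6 in FAK-WT, 63.4 and 15.9 in FAK-/- and 23.4 in FAK-nls replicate 1. Missing from FAK-/- was also a region of *9430078K24Rik* (chr12:79925095-79925667), with 47.1 and 54.9 in FAK-WT, 8.5 in FAK-nls replicate 2 and 47.4 in FAK-kd replicate 2. Another promoter region of *9430078K24Rik* was called in all 8 libraries, FAK-/- included. There the normalised fold enrichment of FAK-WT and FAK-/- differed by −0.07 (log2, SE 0.143, limma adjusted p = 0.985). With equal peak numbers *Gm39043* was called in 3 libraries, *Gm26579* in 2 and *Gm45502* in 3, and with −log10 q of at least 3 *Gm44812* was called in 5.

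In the reverse direction, *Gm29157* (chr1:43742236-43743044) had percentiles of 79.5 and 43.4 in FAK-/- and 52.7 and 38.3 in FAK-kd, with no call in FAK-WT or FAK-nls. *4933436E23Rik* (chr1:139379231-139379845) had 44.1 and 29.5 in FAK-/- and 38 and 9.2 in FAK-kd. *AC073683.1* (chr17:56957862-56958395) had 29.5 and 20.2, and 20.3 and 28.6. The regions of *Gm29157* and *AC073683.1* overlapped an exon of a protein-coding gene. *1700065J18Rik* (chr1:192841223-192841710) was called in FAK-/- alone, with 33.8 and 36.3, and *Gm49636* (chr16:29754728-29755305) in FAK-kd alone, with 14.5 and 36.1. *Gm48521* (chr10:96800813-96801200) had 23.9 and 31.5 in FAK-kd and 20.4 in FAK-/- replicate 2. The 3 regions called in FAK-nls and missing from FAK-WT were *Gm30906* (chr10:8176232-8176855), with 68.6 and 37.6 in FAK-nls, 20.1 and 74.9 in FAK-kd and 29.3 in FAK-/- replicate 1, *1700023G09Rik* (chr1:186926245-186926779), with 57.0 and 34.4 in FAK-nls and 17.1 in FAK-kd replicate 2, and *Gm12111* (chr11:32925526-32925997), with 26.9 and 5.2 in FAK-nls and 27.6 and 32.8 in FAK-kd. With −log10 q of at least 3 these were called in 2, 1 and 1 libraries. Of the regions called in FAK-/- or FAK-kd, *Gm29157* lay above the lincRNA median in FAK-/- replicate 1 and FAK-kd replicate 1. Their calls changed with the settings. *1700065J18Rik* was called in 1 library with equal peak numbers or with 50% of the region covered. *AC073683.1*, *Gm48521* and *Gm49636* were called in 0 libraries with equal peak numbers, where *Gm29157* was called in 3 and *4933436E23Rik* in 2. With at least 50% of a region covered, *Gm29157* and *4933436E23Rik* were each called in 1 library. With peaks of 500 bp, or with protein-coding TSSs over 5 kb away, *4933436E23Rik* no longer met the rule for a lincRNA promoter. AP-1 matches were found in the centres of 13 of the 34 FAK-WT-only regions against FAK-/- (38.2%) and 11 of the 28 against FAK-kd (39.3%), and in 0 of 12 and 1 of 12 of the reverse sets. For FAK-nls the numbers were 43 of 133 (32.3%) and 1 of 3 (33.3%). Over all lincRNA promoters the share was 24.4%. Among all regions chosen the same way, AP-1 matches were as frequent in the FAK-WT-only sets, at 37.4% against FAK-/-, 35.6% against FAK-nls and 37.9% against FAK-kd. The reverse sets of all regions held 26.2%, 33.7% and 25.3%, with 28.7% over all regions. The sets were chosen by their calls, and this was not tested.

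Fold enrichment, the ratio of coverage to the local background of the same library, was compared for the 241 lincRNA promoters among the 17917 regions called in all 8 libraries. A limma fit on quantile-normalised log2 values gave no lincRNA promoter past an adjusted p of 0.05 in any comparison. Of all regions it called 0.00558% higher and 0% lower in FAK-WT than in FAK-/-. For FAK-nls these shares were 0% and 0%, and for FAK-kd 0.0112% and 0%. At an unadjusted p under 0.05, 9 lincRNA promoters were higher (3.73%, against 3.33% of all regions) and 15 lower (6.22%, against 3%) in FAK-WT than in FAK-/-. The numbers were 18 and 20 for FAK-nls (7.47% and 8.30%, against 7.93% and 7.44%) and 5 and 8 for FAK-kd (2.07% and 3.32%, against 3.28% and 2.08%). The lowest adjusted p among lincRNA promoters by limma was 0.332 in the comparison with FAK-/-, 0.0918 with FAK-nls and 0.389 with FAK-kd. The fitted log2 differences of lincRNA promoters ran from −0.66 to 0.65 against FAK-/- (median −0.04), from −0.68 to 0.57 against FAK-nls (median −0.02) and from −0.39 to 0.61 against FAK-kd (median −0.02), with a median SE of 0.147.

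The same fit on log2 pileup, the coverage height of a peak, passed 5 lincRNA promoters. It called 0.324% of all regions higher and 0.223% lower in FAK-WT than in FAK-/-. These shares were 1.02% and 0.86% for FAK-nls and 0.156% and 0.0837% for FAK-kd. *Gm49211* (chr15:56003602-56004502) was higher in FAK-WT than in FAK-/- by 1.55 ± 0.24 (log2, SE, limma adjusted p = 0.00497), and *Gm26516* (chr4:130778409-130779597) lower by −0.97 ± 0.23 (adjusted p = 0.0497). Against FAK-nls, *4930580E04Rik* (chr5:23386681-23387609) was higher by 0.81 ± 0.14 (adjusted p = 0.00467), *B830012L14Rik* (chr12:109694109-109695385) higher by 0.86 ± 0.20 (adjusted p = 0.0294) and *Gm26812* (chr8:121849897-121851484) lower by −0.93 ± 0.21 (adjusted p = 0.0251). None of the 5 passed in fold enrichment, where the differences had the same signs, at 0.65, −0.55, 0.33, 0.40 and −0.68, with limma adjusted p from 0.0918 to 0.432.

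The values behind these calls were as follows. At *Gm49211* the pileup was 36.9 and 20.6 in FAK-WT, 6.97 and 8.81 in FAK-/-, 7.44 and 8.68 in FAK-nls, and 14.9 and 27.7 in FAK-kd, and the fold enrichment 7.64 and 5.70, 3.47 and 4.23, 4.84 and 5.54, and 5.14 and 7.98. FAK-WT did not overlap with FAK-/- in either measure, and met FAK-kd in both. At *Gm26516* the pileup was 8.20 and 8.99 in FAK-WT, 15.9 and 15.4 in FAK-/-, 6.86 and 6.62 in FAK-nls, and 9.25 and 8.89 in FAK-kd, with FAK-/- above the others. Its fold enrichment was 3.26 and 3.51 in FAK-WT, 4.91 and 4.69 in FAK-/-, 3.47 and 3.70 in FAK-nls, and 3.80 and 4.94 in FAK-kd, where FAK-/- met FAK-kd. At *Gm26812* it was 3.54 and 3.47 in FAK-WT and 4.46 and 5.85 in FAK-nls, while its pileup before normalisation overlapped, with 12.6 and 10.3 in FAK-WT and 10.7 and 11.7 in FAK-nls. At *4930580E04Rik* the pileup was 46.3 and 31.1 in FAK-WT, 37.0 and 29.7 in FAK-/-, 11.0 and 11.2 in FAK-nls, and 34.0 and 41.0 in FAK-kd, and the fold enrichment 7.91 and 6.93, 7.78 and 6.76, 5.14 and 5.21, and 7.33 and 8.19. The FAK-nls libraries were the lowest in both. At *B830012L14Rik* the pileup was 28.6 and 18.6 in FAK-WT, 20.9 and 16.0 in FAK-/-, 6.31 and 7.20 in FAK-nls, and 13.5 and 19.2 in FAK-kd, again with FAK-nls lowest. In fold enrichment, with 6.41 and 5.15, 5.44 and 5.19, 3.75 and 4.17, and 4.05 and 6.6, FAK-nls met FAK-kd. The FAK-nls libraries had the fewest peaks, and the part of this in the pileup was not tested.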

How the data were processed

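The peak lists of 8 ATAC-seq libraries were assigned to 4 lines by their sample titles and treatment labels. The authors aligned reads to mm10 with bcbio and called broad peaks in each library separately with MACS2 (version 2.1.1 in the submitters' processing notes), with shift -100, extension 200 and a stated q of 0.05, and pooled no replicates. How duplicates were treated is not given in the sources used here. The deposited lists hold, for each peak, a pileup (coverage signal), −log10 p-values and −log10 q-values, and the fold enrichment over local background as the authors' peak caller gave them.

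Peaks were merged and assigned to TSSs of GENCODE M21 transcripts (GRCm38) with Python 3.11.15 and pandas 2.3.3, and promoter sequences were read from GRCm38 with pysam 0.24.0. The strongest peak by −log10 p stood for a region in a library. Since the lists hold no read counts, no count test was run. The study's own comparison used reads. Shares and median percentiles per library were tested by exact permutation, and log2 fold enrichment with limma 3.58.1 (R 4.3.3), quantile normalisation, a mean-variance trend and Benjamini-Hochberg adjustment over all regions. The functions were tested on simulated data. Reads per library were not used, so a deeper library can call more regions. In the study's supplement both FAK-kd libraries have fewer mapped reads than both FAK-nls libraries, and they have more peaks. The same supplement gives both FAK-kd libraries a lower share of duplicates than both FAK-nls libraries, so mapped reads alone do not compare their depth. The part of depth in the peak numbers was not tested. Intervals cover counting error only.

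Genes were named by a rule: listed known lincRNAs and the 8 regions with the highest lowest percentile over the libraries. It also took the 4 leading regions of each set called in a single line of a pair, by the lower percentile of that line's 2 libraries. The leading region of each pattern of lines was added, as were regions past the limma threshold, of which there were 0. The 5 regions past it on pileup alone were chosen after their values were seen. The members and lists were chosen with earlier results of these data known. The alternatives were a stricter q-value, equal peak numbers, other windows and distances, fixed peak widths, autosomes only, at least 50% coverage of a region, other strength measures, other limma settings, a replicate block and leaving out each library.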

Additional observations from a re-analysis of the deposited data

How the results depend on the processing

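A line has 2 libraries, and a called region depends on depth that was not used here. The median strength below protein-coding promoters kept its direction and its side of 0.05 under every alternative except the replicate block, although it shrank to −9.31 with −log10 q of at least 3 and −9.32 with equal peak numbers. The replicate block leaves 2 values and a smallest exact p of 0.5 (−16.2 points, p = 0.5; distal, 6.54 points, p = 0.5). The labels' replicate numbers did not pair the libraries (correlations of deviations between −0.202 and 0.055). With the replicate block the line share was 24.6% (exact p = 0.75), the FAK-WT difference −0.0453 (exact p = 0.5) and limma still called 0 lincRNA promoters, as it did with the FAK-kd numbers crossed, an alternative added after seeing the data. The strength above distal regions was 0.741 with fold enrichment percentiles, and the cause was not tested. The line share was 95.3% with equal peak numbers, and the cause was not tested. The FAK-WT difference turned to 0.0252 points when 50% of a region had to be covered and to 0.0185 without FAK-WT replicate 1, neither past 0.05.

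The number of regions was 482 with equal peak numbers. The share of lincRNA genes with a called region at a TSS was then 9.06%, regions within 2 kb of a protein-coding TSS included. Regions in all libraries numbered 120 with −log10 q of at least 3 and 98 when 50% had to be covered. With −log10 q of at least 3, FAK-WT-only regions against FAK-kd were 17 (3.14%, against 4.73% of all regions), and reverse regions 4 (0.739%, against 0.868%), 0 (0%, against 0.125%) and 3 (0.555%, against 0.614%) against FAK-/-, FAK-nls and FAK-kd. With equal peak numbers FAK-WT-only regions were 18, 24 and 8, and reverse regions against FAK-nls 26. With 50% covered, FAK-WT-only regions were 63 (8.69%, against 6.11%) against FAK-/- and 46 (6.34%, against 5.57%) against FAK-kd, and with peaks of 500 bp reverse regions against FAK-nls were 5 (0.68%, against 0.378%). On pileup limma called 1 higher and 1 lower against FAK-/- and 2 and 1 against FAK-nls.

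Without each library in turn, the line share ranged from 10.8% to 51.8% and the FAK-WT difference from −0.111 to 0.0185. The strength differences ranged from −16.6 to −15.5 and from 5.62 to 7.35 points. FAK-WT-only regions ranged from 44 to 115 (6.21% to 16.2%, against 6.3% to 21% of all regions), 149 to 256 (22.4% to 36.2%, against 19.7% to 38.6%) and 33 to 107 (4.61% to 15.1%, against 5.5% to 18.6%) against FAK-/-, FAK-nls and FAK-kd. Reverse regions ranged from 13 to 34 (1.84% to 4.8%, against 1.46% to 7.12%), 3 to 12 (0.424% to 1.66%, against 0.293% to 1.48%) and 14 to 36 (1.98% to 5.03%, against 1.07% to 8.23%), since fewer libraries must then be called or not. Limma called 0 in each case, with the lone library of a line assumed to vary like the other lines, which says nothing about stability.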
